A study of Mus musculus with 4 samples.

Results

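The genes described here are the Fc-gamma receptors of the mouse and the adaptors they share a signalling route with. They were taken by symbol: Fcgr1, Fcgr3 and Fcgr4 (activating receptors), Fcgr2b (the inhibitory receptor), and Fcer1g and Tyrobp (adaptors). All 6 had a value in every library, out of 24346 symbols listed. RNA sequencing was done on liver of C57BL/6 mice, young males by the description of the study. The control group (2 libraries) received a NASH diet, rich in fat, cholesterol and sucrose with bile salt, which induces steatohepatitis, for 3 weeks. The 7KC group (2 libraries) received the same NASH diet with 7-ketocholesterol (7KC), an oxidized sterol that forms in cholesterol-containing food, for 3 weeks. No group without the NASH diet was analysed here, and both groups were compared before any skin treatment. Nothing in the labels says whether the libraries of a group came from separate mice, so p-values measure only the spread between these samples.

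Fc-gamma receptors bind the constant part of IgG and so let immune complexes and antibody-coated particles act on leukocytes. Activating receptors signal through immunoreceptor tyrosine-based activation motifs (ITAMs) on the adaptor chain that Fcer1g encodes. The inhibitory receptor carries its own immunoreceptor tyrosine-based inhibition motif (ITIM), which recruits phosphatases and restrains the same cells. In liver these receptors are known from Kupffer cells, recruited monocytes and macrophages, neutrophils and NK cells, and Fcgr2b in particular from sinusoidal endothelium, where it clears small immune complexes. Tyrobp encodes a related ITAM adaptor (DAP12), used by other receptors of the same cells.

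Of the 6 genes, 4 lie close together on chromosome 1 of mm10 (GRCm38), with positions from GENCODE M21. Fcgr2b spans chr1:170958617-170976547 on the minus strand. Fcgr4 spans chr1:171018920-171029761 on the plus strand and lies 42.4 kb from it. Fcgr3 spans chr1:171051174-171064935 on the minus strand, 21.4 kb beyond Fcgr4, and Fcer1g spans chr1:171229572-171234365 on the minus strand, a further 164.6 kb away. Fcgr1 lies apart at chr3:96282909-96293969 on the minus strand, as does Tyrobp at chr7:30413760-30417585 on the plus strand.

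The activating Fcgr3 and the inhibitory Fcgr2b are nearly identical over part of their extracellular domains, which matters here because reads of 75 bases were counted per gene. The longest stretch that the transcripts of both genes share is coding, runs over exons 3 and 4 of each, and is 129 bases long. It is shown because a read from inside it cannot be given to either gene.

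Fcgr2b and Fcgr3 shared stretch: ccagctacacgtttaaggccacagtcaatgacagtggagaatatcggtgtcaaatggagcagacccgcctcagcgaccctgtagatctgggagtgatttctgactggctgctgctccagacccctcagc

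On the minus strand it extends within chr1:170966674-170968081 for Fcgr2b and within chr1:171054167-171057792 for Fcgr3, intron included. Of the 75-base windows of Fcgr3 transcripts, 5.42% also occur in Fcgr2b, and of those of Fcgr2b, 1.63% occur in Fcgr3. Counting every other gene, 313 of the 5768 windows of Fcgr2b (5.43%) occur elsewhere too, 123 of them in Cplx2 on the antisense strand. Fcgr1, Fcgr4, Fcer1g and Tyrobp shared no such window with another gene. Fcgr2b also overlaps an antisense RNA, Gm38204, by 155 exon bases, and how strand entered the counting was not stated.

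Promoters of the activating receptors Fcgr1 and Fcgr4 are shown because these genes hold letters known from myeloid and interferon-responsive promoters. They are the 250 bases before the RefSeq start on GRCm38.p6, written 5′ to 3′ on the strand of the gene, with motif matches in capitals.

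Fcgr1 (chr3:96293970-96294219, minus strand): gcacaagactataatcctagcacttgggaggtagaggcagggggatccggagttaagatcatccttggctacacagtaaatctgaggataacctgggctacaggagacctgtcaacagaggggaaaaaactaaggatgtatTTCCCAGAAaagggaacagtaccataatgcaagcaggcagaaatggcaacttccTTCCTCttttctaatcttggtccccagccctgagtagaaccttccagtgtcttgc
Fcgr4 (chr1:171018676-171018925, plus strand): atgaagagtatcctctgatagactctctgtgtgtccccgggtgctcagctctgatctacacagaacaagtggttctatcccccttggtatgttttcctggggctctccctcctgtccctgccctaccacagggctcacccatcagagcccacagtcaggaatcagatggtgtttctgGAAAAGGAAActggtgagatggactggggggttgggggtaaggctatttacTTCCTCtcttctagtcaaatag

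Both strands were searched for 3 motifs: GAGGAA (the ETS core of the type bound by PU.1, a myeloid regulator), TTCNNNGAA (the GAS element bound by STAT dimers) and the ISRE-type element bound by interferon regulatory factors. Counted back from the start site, Fcgr1 held the GAS letters TTCCCAGAA at -109 and the ETS core, as TTCCTC, at -55. Fcgr4 held the ISRE-type letters GAAAAGGAAA at -73 and the ETS core at -22. Fcgr3 held the ETS core at -6 or -15, depending on which of its 2 listed starts was used. No match stood in the windows of Fcgr2b, where 203 of the 250 bases lie in an annotated exon of Fcgr2b or Gm38204, and Fcer1g, and of the 6 genes 5 had a promoter in the table, Tyrobp not. Of 32851 promoters of the same length, 23.3% held the ETS core, 7.0% the GAS letters and 3.0% the ISRE-type letters. A match describes these letters and is no evidence of binding.

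Levels are FPKM, by definition fragments counted relative to transcript length and library total. This is a per-length measure, so levels may be compared between genes. Estimated depth was 13600000 to 17000000 reads per library, and the control libraries listed 10967 and 11024 genes at 1 FPKM or more against 11241 and 11415 in the 7KC libraries. At that depth Fcgr1 rested on about 111 to 280 reads per library and the other members on about 315 to 1730. The coefficient of variation from counting error alone would be at most 9.5% for Fcgr1 and 5.6% for the others. Log2 changes are differences of log2(FPKM + 0.5) between group means, and adjusted p-values are from limma over the 12299 genes that averaged 0.5 FPKM or more.

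In every one of the 6 genes both 7KC values exceeded both control values, with group means 1.5- to 2.27-fold apart, yet none passed an adjusted p of 0.05. The level of Fcgr4 came closest. The order of mean levels in the control group was Tyrobp, Fcer1g, Fcgr2b, Fcgr3, Fcgr4 and Fcgr1. In the control group Tyrobp and Fcer1g overlapped across libraries, as did Fcgr2b and Fcgr3, though Tyrobp was above Fcer1g within each control library. In the 7KC group Fcgr3 stood above Fcgr2b in the mean and within each library. Across the 7KC libraries their ranges overlapped, and Fcgr2b also overlapped Fcgr4.

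Fcgr4 encodes a receptor for IgG2a and IgG2b on monocytes, macrophages and neutrophils. Its level was 17.7 and 21.6 FPKM in the control replicates against 42.2 and 46.2 FPKM in the 7KC replicates. The groups were well apart and the libraries of each lay close together. The mean was 19.7 ± 2.77 FPKM (SD, n = 2) in the control group and 44.2 ± 2.83 FPKM (SD, n = 2) in the 7KC group, a log2 difference of 1.15 (SE 0.14, limma adjusted p = 0.0512). With 1 library left out the limma adjusted p of Fcgr4 was 0.0412 without control replicate 1 (log2 difference 1.01) and 0.0713 without control replicate 2. It was 0.159 when 7KC replicate 1 was left out and 0.327 when 7KC replicate 2 was.

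Fcgr3 encodes the low-affinity activating receptor of most myeloid cells and NK cells. It stood at 33.4 and 29.9 FPKM in the control replicates against 53.1 and 70.5 FPKM in the 7KC replicates. The groups did not overlap, but the 7KC libraries differed from each other more than the control libraries did. Group means were 31.7 ± 2.48 and 61.8 ± 12.3 FPKM (SD, n = 2 each), with a log2 difference of 0.94 (SE 0.17, limma adjusted p = 0.0766).

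Fcgr1, the high-affinity IgG receptor of monocytes and macrophages, had the lowest level of the 6 genes. Its level was 3.95 and 3.36 FPKM in the control replicates against 6.52 and 8.54 FPKM in the 7KC replicates, again without overlap. Means were 3.65 ± 0.419 and 7.53 ± 1.42 FPKM (SD, n = 2 each), and the log2 difference was 0.94 (SE 0.17, limma adjusted p = 0.0811).

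Fcgr2b, the inhibitory receptor, stood at 32.5 and 36.1 FPKM in the control replicates against 40.8 and 61.8 FPKM in the 7KC replicates. The groups did not overlap, but 7KC replicate 1 was only a little above control replicate 2. Means were 34.3 ± 2.50 and 51.3 ± 14.8 FPKM (SD, n = 2 each), a log2 difference of 0.55 (SE 0.21, limma adjusted p = 0.278), the smallest of the 6. It was 0.25 without 7KC replicate 2 and 0.84 without 7KC replicate 1, so its size rested on which of those libraries was kept.

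The adaptors had the highest levels. Fcer1g stood at 113 and 78.7 FPKM in the control replicates and at 218 FPKM in both 7KC libraries. The control libraries were spread and the 7KC libraries almost equal. Means were 96.1 ± 24.6 and 218 ± 0.305 FPKM (SD, n = 2 each), with a log2 difference of 1.20 (SE 0.20, limma adjusted p = 0.0648). The log2 difference of Fcer1g was 1.47 (limma adjusted p = 0.0244) without control replicate 1 and 0.94 (adjusted p = 0.143) without control replicate 2. Without 7KC replicate 1 or 2 its adjusted p was 0.183 or 0.376. Tyrobp stood at 145 and 111 FPKM in the control replicates against 243 and 332 FPKM in the 7KC replicates, without overlap. Its means were 128 ± 23.7 and 287 ± 62.8 FPKM (SD, n = 2 each), and its log2 difference was 1.16 (SE 0.21, limma adjusted p = 0.0820).

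**Figure D1:**
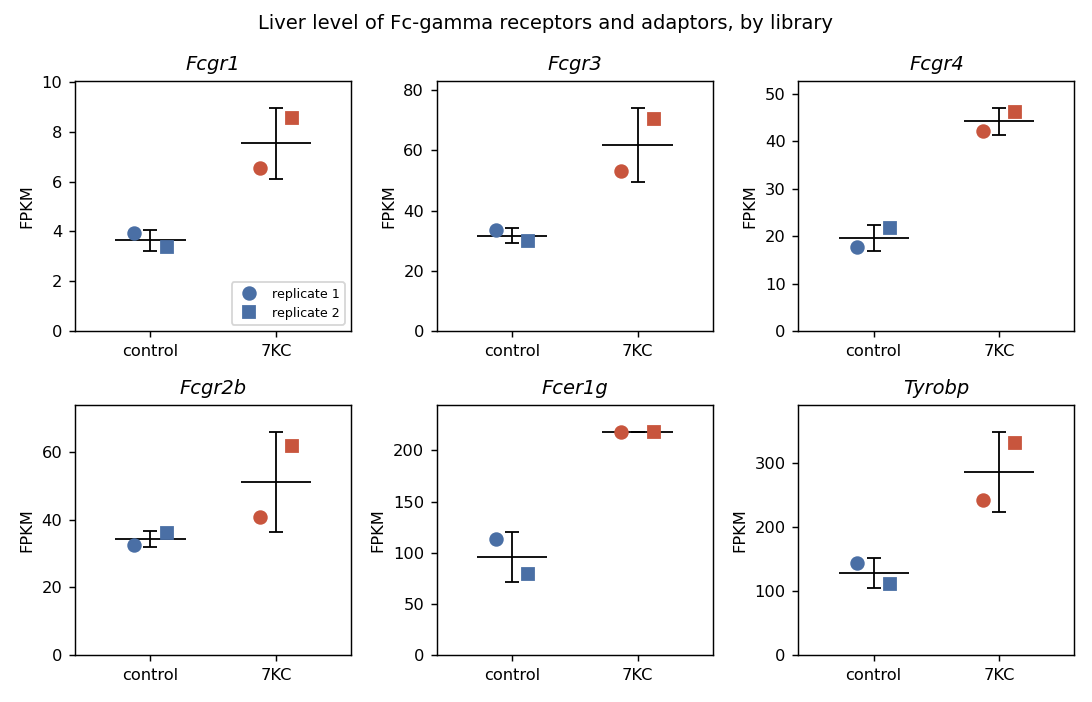
FPKM of each of the 6 genes (vertical axis, from 0) in the 2 control and 2 7KC libraries, with points for libraries and lines for the mean with its SD. In each panel both 7KC points lie above both control points, with Fcgr2b showing the least separation.

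None of the 6 genes passed the adjusted threshold (limma), against 0.48% of all tested genes that did so with higher levels and 0.0244% with lower ones, and 1 of the 6 did with a pseudocount of 1 FPKM. With unadjusted p-values all 6 lay under 0.05, where 12% of tested genes did in the same direction and 5.81% in the other. Fcgr2b was only just under (limma unadjusted p = 0.0488). With other filters, quantile normalization or no trend in the prior variance its limma unadjusted p was 0.0507 to 0.0639. It stayed under 0.05 with other pseudocounts, median ratio or same-sum scaling and a replicate block. Both 7KC values exceeded both control values in 6 of 6, where this held for 25.1% of tested genes and the reverse for 27.4%. The log2 difference was above 0 in 6 of 6, and in 46.1% of tested genes. A log2 difference of at least 1 without overlap, which 4.08% of tested genes showed, was seen in Fcgr4, Fcer1g and Tyrobp. The median log2 difference of the 6 was 1.05 and that of all tested genes -0.03. Among all tested genes the log2 difference of Fcgr2b ranked at percentile 89.1 and those of the other 5 between 95.2 and 97.4.

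**Figure D2:**
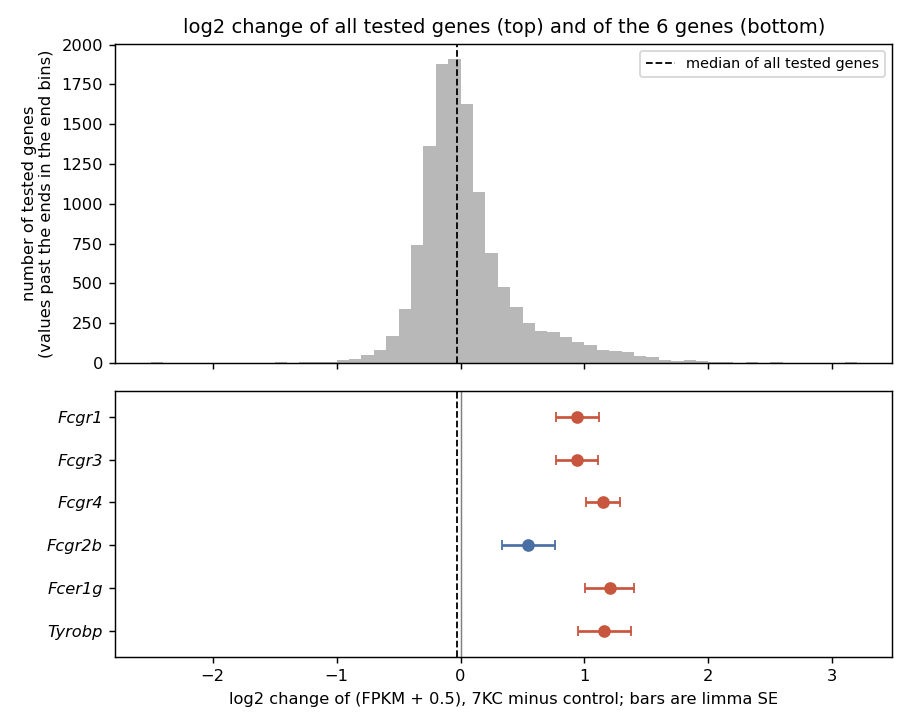
Number of tested genes (vertical axis) by log2 difference of FPKM + 0.5 between the 7KC and control groups (horizontal axis), with the 6 genes marked. The median of all tested genes is -0.03, and the marked genes lie between 0.55 and 1.20.

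The balance between activating and inhibitory receptors was compared within each library. In whole liver this balance and the receptor shares below mix receptors of several cell types. The balance on any single cell type was not tested. The sum of Fcgr1, Fcgr3 and Fcgr4 divided by Fcgr2b was 1.69 and 1.52 in the control replicates against 2.49 and 2.02 in the 7KC replicates. Means were 1.61 ± 0.121 and 2.26 ± 0.331 (SD, n = 2 each), a 1.40-fold difference without overlap. In an exact two-sided permutation test p was 0.333, the smallest that 2 libraries against 2 can give, and 0.50 when adjusted over 12 ratios, which leave out variants of this one. Without Fcgr3, which shares sequence with Fcgr2b, the ratio was 0.666 and 0.693 in the control replicates against 1.19 and 0.885 in the 7KC replicates, and the log2 difference was 0.60. The level of Fcgr4 relative to Fcgr2b was 0.545 and 0.600 against 1.03 and 0.747, that of Fcgr3 1.03 and 0.829 against 1.30 and 1.14, and that of Fcgr1 0.121 and 0.0930 against 0.160 and 0.138, each without overlap.

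Of the summed FPKM of the 4 receptors, Fcgr2b held 37.1% and 39.7% in the control libraries against 28.6% and 33.1% in the 7KC libraries. Fcgr4 held 20.2% and 23.8% against 29.6% and 24.7%. Fcgr3 overlapped, with 38.1% and 32.9% against 37.2% and 37.7%. The sum of Fcgr2b and Fcgr3, which share reads, was 66.0 and 66.0 FPKM in the control replicates against 93.9 and 132 FPKM in the 7KC replicates (exact two-sided permutation test, p = 0.333). The groups did not overlap. Transcripts of these genes differ in length, so the sum in FPKM still depends in part on how shared reads were assigned, which was not tested.

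Fcer1g relative to the 3 activating receptors it serves was 2.06 and 1.43 in the control replicates against 2.15 and 1.74 in the 7KC replicates. Tyrobp relative to Fcer1g was 1.27 and 1.41 against 1.11 and 1.52. Both ratios overlapped between groups.

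**Figure D3:**
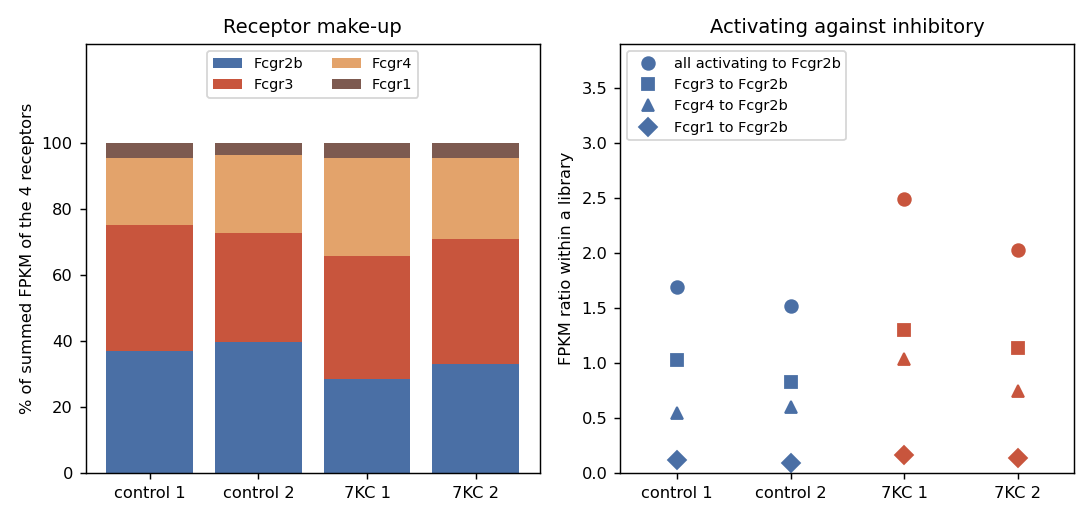
Left, stacked bars give the share of each of the 4 receptors in their summed FPKM (vertical axis, percent, 1 bar per library), and right, points give the FPKM ratio of the summed activating receptors and of each of them to Fcgr2b in each library. The Fcgr2b share is 37.1% and 39.7% in the control bars against 28.6% and 33.1% in the 7KC bars, and the summed ratio is higher in both 7KC libraries.

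In whole liver, more leukocytes and more RNA per leukocyte cannot be told apart, so each gene was also set against Ptprc, the pan-leukocyte gene that encodes CD45. Ptprc was 8.47 and 5.65 FPKM in the control replicates against 15.5 and 20.6 FPKM in the 7KC replicates, a log2 difference of 1.31 (limma adjusted p = 0.0765). Relative to it, the 7KC mean was below the control mean for each of the 6 genes. That direction is for Ptprc as the divisor, and ratios to other leukocyte genes were not computed. Among the 7 macrophage and leukocyte genes, log2 differences ran from 0.73 for Adgre1 to 1.67 for Itgam, so the divisor matters. Fcgr2b per Ptprc was 3.84 and 6.39 in the control replicates against 2.63 and 3.00 in the 7KC replicates, a log2 difference of -0.82. Because Fcgr2b is also known from sinusoidal endothelium, this ratio does not measure Fcgr2b per leukocyte. The part of endothelium in its level was not tested. Fcgr3 per Ptprc was 3.94 and 5.29 against 3.42 and 3.42, Fcgr1 per Ptprc 0.466 and 0.594 against 0.420 and 0.414, and Tyrobp per Ptprc 17.1 and 19.7 against 15.6 and 16.1, each lower without overlap. Fcgr4 per Ptprc overlapped, at 2.09 and 3.83 against 2.71 and 2.24, and so did Fcer1g, at 13.4 and 13.9 against 14.1 and 10.6. For each of the 4 genes without overlap the exact two-sided permutation p was 0.333.

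**Figure D4:**
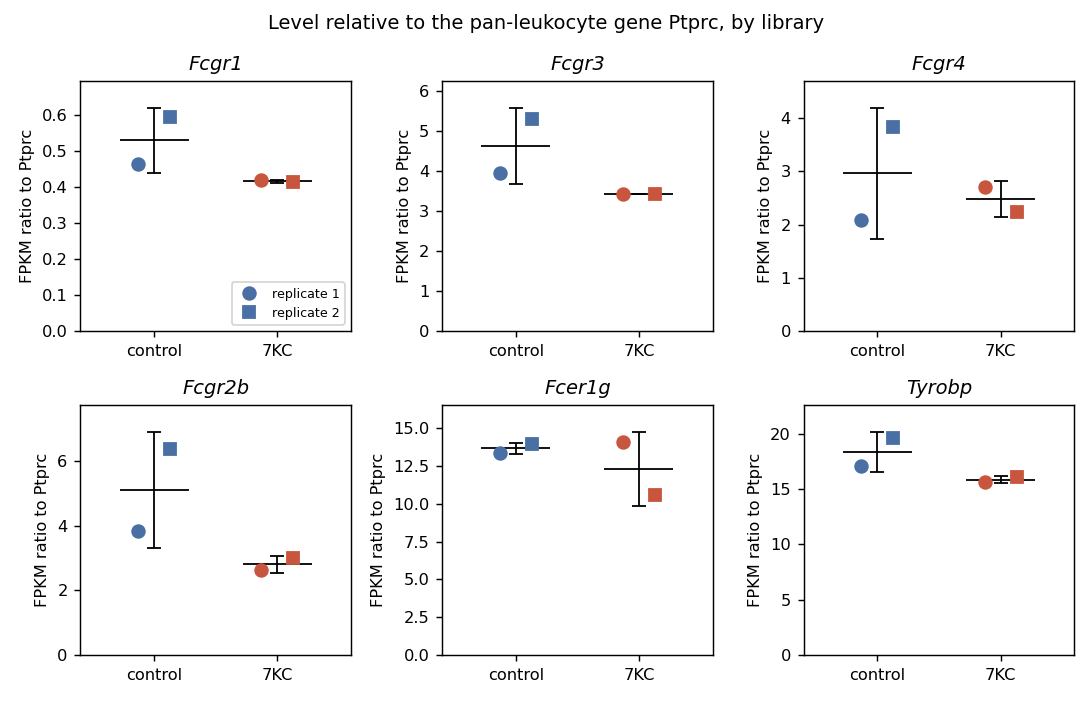
Each of the 6 genes divided by Ptprc (vertical axes, ratio of FPKM) in the 2 control and 2 7KC libraries, with points for libraries and lines for the mean with its SD. Fcgr2b lies lowest against the control group, at 2.63 and 3.00 against 3.84 and 6.39, and the points of Fcgr4 and Fcer1g overlap.

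Marker lists of several cell types known to carry these receptors lay higher in the same libraries, and no marker gene passed the adjusted threshold (limma). The counts without overlap are to be read against 25.1% of all tested genes above and 27.4% below. The 7 macrophage and leukocyte genes, such as Ptprc and Adgre1, summed to 426 to 654 FPKM in the control libraries and 1186 to 1873 FPKM in the 7KC libraries, and 6 of 7 lay above without overlap, Adgre1 being the exception. The monocyte genes, with Ccr2 and Ly6c2, summed to 15.0 to 32.3 against 73.0 to 108 FPKM (4 of 6 above). Resident Kupffer cell genes summed to 303 FPKM in both control libraries and 349 to 522 FPKM (3 of 6 above, 1 below), with Timd4 at 7.44 and 7.62 against 13.3 and 16.3 FPKM and Clec4f overlapping. The one below was Vsig4, a complement receptor named after its values were seen, at 40.1 and 43.0 against 25.4 and 38.4 FPKM. T cells are not among the cells named above as carrying these receptors. Their genes, with Cd3e and Cd3d, summed to 8.86 to 14.3 against 30.7 to 34.0 FPKM (6 of 6 above). NK cell genes, with Klrb1c and Klre1, summed to 2.42 to 2.59 against 4.82 to 9.95 FPKM (4 of 4 tested above). Neutrophil genes, with S100a8 and S100a9, summed to 18.3 to 33.8 against 39.4 to 42.3 FPKM (2 of 4 tested above).

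Dendritic cell genes, with Flt3 and Zbtb46, summed to 4.34 to 5.33 against 7.40 to 7.51 FPKM (2 of 4 tested above). Of the B cell genes 1 of 4 tested lay above, and Cd79a overlapped. Of the mast cell and basophil genes only Hdc was tested, and it overlapped. Mcpt4 and Tpsb2 were listed at 0 in every library, and Cpa3 at 0 in 3 of them. Cma1, too low to be tested, was at 0 in both control libraries against 0.252 and 0.250 FPKM in the 7KC libraries. Sinusoidal endothelial genes, with Stab2 and Lyve1, overlapped in 7 of 7, at 112 to 140 against 101 to 150 FPKM. Hepatocyte genes, with Alb and Apoa1, identify the tissue as labelled and summed to 48546 to 61946 against 31360 to 42970 FPKM (5 of 6 below). Stellate cell genes, with Lrat and Reln, summed to 14.9 to 18.2 against 14.0 to 16.8 FPKM (1 of 4 below). The part of these cells in the receptor levels was not tested.

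The genes that surround the receptors were described from 6 lists, 89 genes in all, of which 79 matched a symbol and 64 were tested. Of these, 2 rose (limma adjusted p under 0.05, against 0.48% of all tested genes) and none fell (0.0244%). An unadjusted p under 0.05 was found with higher levels in 40 (12% of all tested genes) and with lower levels in 1 (5.81%). Both 7KC values lay beyond both control values on the higher side in 52 (25.1% of all tested genes) and on the lower side in 3 (27.4%). The median log2 difference was 0.80, against -0.03 for all tested genes. Counts for the single lists below are to be read against these same shares of all tested genes. Without control replicate 1 the number of listed genes called was 15, and without any 1 of the other 3 libraries it was 0.

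The activating signalling list held 20 tested genes, in all of which both 7KC values exceeded both control values, with a median log2 difference of 1.11. Which cells carried these changes, T cells included, was not tested. Lcp2, which encodes the scaffold SLP-76, rose from 5.21 and 4.61 FPKM to 12.4 and 15.1 FPKM, a log2 difference of 1.39 (SE 0.15, limma adjusted p = 0.0408). Syk and Lyn, kinases that phosphorylate ITAMs or pass the signal on, were named after their values were seen, for their place in the route. Syk, which docks on the phosphorylated ITAM, was at 6.33 and 4.14 FPKM against 10.1 and 13.2 FPKM (log2 difference 1.10, limma adjusted p = 0.105). Lyn, a Src family kinase, was at 17.2 and 16.6 FPKM against 21.0 and 27.0 FPKM (log2 difference 0.48, limma adjusted p = 0.205).

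Of 9 inhibitory signalling genes, 8 lay above without overlap, with a median log2 difference of 0.79, and none passed the threshold (limma, 5 with an unadjusted p under 0.05). Dok1, an adaptor that dampens Ras signalling, was at 2.29 and 2.67 FPKM against 5.69 and 7.32 FPKM (log2 difference 1.23, limma adjusted p = 0.0548). Ptpn6, the phosphatase SHP-1, was at 22.6 and 18.3 FPKM against 39.3 and 43.0 FPKM (log2 difference 1.0, limma adjusted p = 0.0588). Cbl, a ubiquitin ligase that limits Syk signalling, was at 1.62 and 1.30 FPKM against 2.30 and 3.56 FPKM. Inpp5d, the lipid phosphatase SHIP-1 that Fcgr2b recruits, named after its value was seen, was at 3.10 and 2.90 FPKM against 4.46 and 7.78 FPKM (log2 difference 0.87, limma adjusted p = 0.189).

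Of 12 tested receptors and adaptors that pair with Fcer1g or Tyrobp, 10 lay above without overlap, with a median log2 difference of 1.02. Cd247, the ITAM-bearing zeta chain of T and NK cells, rose from 0.590 and 0.586 FPKM to 2.41 and 2.61 FPKM, a log2 difference of 1.47 (SE 0.16, limma adjusted p = 0.0451). Trem2, a lipid-sensing Tyrobp partner of macrophages, named after its values were seen, overlapped at 4.75 and 3.02 FPKM against 4.63 and 16.3 FPKM. Of 13 other receptors with ITIMs, 10 lay above and 1, Ceacam1, below, with a median of 0.76. Clec12a, an inhibitory lectin of myeloid cells, was at 7.09 and 6.12 FPKM against 15.0 and 20.7 FPKM (limma adjusted p = 0.0543). Pirb, an inhibitory receptor for MHC class I, was at 9.24 and 7.46 FPKM against 19.4 and 28.1 FPKM, and Pilra, a myeloid inhibitory receptor, at 4.22 and 3.57 FPKM against 7.44 and 9.75 FPKM.

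Of the ligands of these receptors, 3 of 13 listed genes matched a symbol, and the 10 immunoglobulin chain genes were not analysed here. Crp, a pentraxin that binds Fc-gamma receptors, was at 404 and 376 FPKM against 333 and 293 FPKM (log2 difference -0.32, limma adjusted p = 0.312). Apcs, the pentraxin serum amyloid P, and Jchain, the joining chain of polymeric immunoglobulin, overlapped. The list of other Fc receptors had 7 tested genes and includes B2m, a subunit that is not itself a receptor. Of these, 4 lay above without overlap (25.1% of all tested genes) and 1 below (27.4%), with a median log2 difference of 0.22. Trim21, a cytosolic antibody receptor, was at 3.40 and 4.04 FPKM against 5.99 and 5.42 FPKM (log2 difference 0.56, limma adjusted p = 0.142). Fcmr, the IgM receptor, was at 1.63 and 0.900 FPKM against 0.851 and 0.619 FPKM, and Fcrla, an Fc receptor-like protein of B cells, at 0.601 and 0.398 FPKM against 0.652 and 0.846 FPKM. Fcgrt, the neonatal Fc receptor of hepatocytes and endothelium, named after its values were seen, overlapped at 88.2 and 89.3 FPKM against 88.6 and 85.5 FPKM (log2 difference -0.03).

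**Figure D5:**
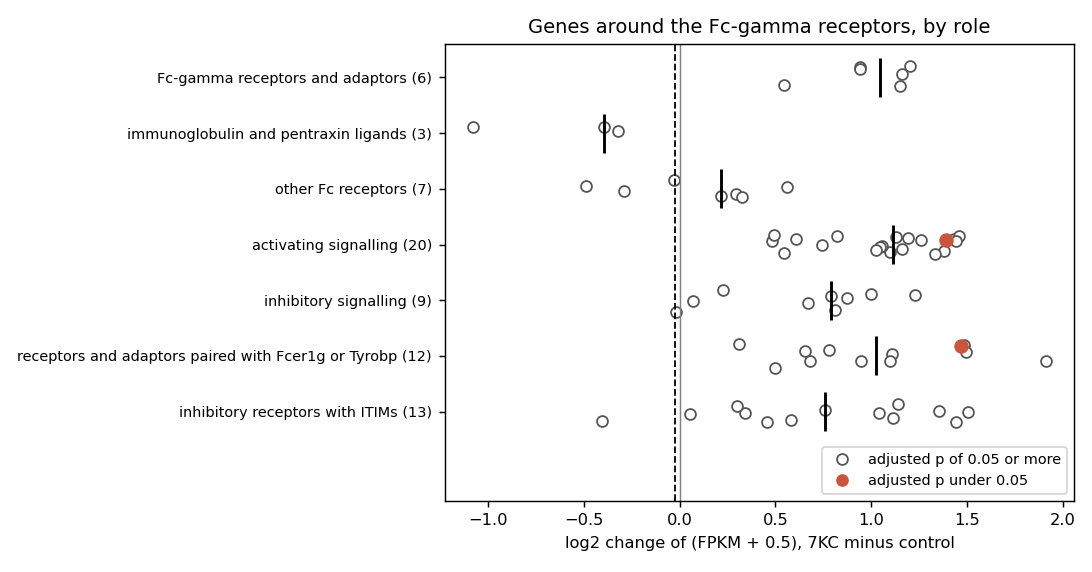
Log2 difference of FPKM + 0.5 between the 7KC and control groups (horizontal axis) for each tested gene of the 6 lists and for the 6 Fc-gamma receptor and adaptor genes, with a vertical bar at each median and a dashed line at the median of all tested genes. Filled points, Lcp2 and Cd247, passed an adjusted p of 0.05 (limma).

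Profiles over the 4 libraries differed among the 6 genes. After centring on the log2 scale, Fcgr1 and Fcgr3 lay closest to the mean profile of the 6 (root mean square difference 0.0362 and 0.0384), and Fcgr2b farthest (0.263). Within the 7KC group, replicate 2 exceeded replicate 1 by 0.59 on the log2 scale for Fcgr2b and by 0.13 for Fcgr4, while Fcer1g did not differ. Within the control group, Fcer1g was 0.52 lower in replicate 2 than in replicate 1 and Fcgr4 0.28 higher. Over the 4 libraries, among 7167 tested genes of at least 5 FPKM, those most like the mean profile were Unc93b1 (0.0299), Cxcl16 (0.0335), Pilra (0.0399), Msn (0.0419) and H2-Q6 (0.0523). Unc93b1 carries Toll-like receptors to endosomes, Cxcl16 is a chemokine and scavenger receptor, Msn is a cytoskeletal linker and H2-Q6 an MHC class I gene. Unc93b1 was at 37.8 and 34.4 FPKM against 61.5 and 81.1 FPKM, and 4 points are too few to single these genes out from others.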

How the data were processed

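Liver RNA was sequenced as 75-base single-end reads from stranded messenger RNA libraries, and the authors mapped them to mm10 and deposited FPKM, 1 value per symbol and library. The submitters' processing notes name TopHat2 2.1.1, Bowtie2 2.2.8, SAMtools 0.1.18 and Cuffdiff 2.2.1. The gene annotation and the treatment of multi-mapped reads are not given in the sources used here. By definition FPKM is relative to all mapped reads, in which case a change in abundant genes moves all others. The library scaling used in Cuffdiff is not stated in the study methods, and the depth estimate takes the definition as given. Groups came from the sample labels. Genes that averaged 0.5 FPKM or more were tested on log2(FPKM + 0.5), a scale that understates changes of low genes, with limma 3.58.1 in R 4.3.3 (trended prior variance, Benjamini-Hochberg adjustment, threshold 0.05), checked on simulated data with changes larger than those of the 6 genes. Ratios were compared by exact permutation over libraries (scipy 1.17.1). Depth was estimated from the steps of low values in single-transcript genes, where 68.9% to 71.0% of values of up to 10 reads lay within 0.1 of a whole read. Intervals of counting cover counting error only. From each gene list the text names genes past the threshold (at most 5), otherwise the 3 with the smallest p, and the first 2 genes of each marker list. Some genes of these lists are not reported here. Alternatives were other pseudocounts, filters and scalings, no trend in the prior variance, a replicate block and leaving out each library. A crossed pairing of the libraries was added after seeing the data. The genes, lists and tests were chosen with earlier results of these data known. Figures were drawn with matplotlib 3.10.9.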

Additional observations from a re-analysis of the deposited data

How the results depend on the processing

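The direction of all 6 genes was kept in each of the 84 values recomputed (6 genes, 14 alternatives). The 14 include the crossed pairing described below, which was added after seeing the data. Only the scalings could have reversed a direction. Changes of filter, prior variance or block left the log2 differences as they were. As the groups did not overlap, another pseudocount or leaving out 1 library could not reverse them. The number of the 6 genes called was 0 as reported, 1 with a pseudocount of 1 FPKM, 1 with median ratio scaling and 4 with libraries rescaled to the same sum, and 0 to 2 when 1 library was left out, 2 being without control replicate 1. Same-sum scaling moved the median of all tested genes to 0.16. All genes called numbered 62, and 115 with a pseudocount of 1 FPKM, 1 with no filter on low values, 126 with median ratio scaling, 405 at the same sum, 40 with no trend in the prior variance and 4 to 441 with 1 library left out, 441 being without control replicate 1. Of the listed pathway genes 2 were called, and 4 with a pseudocount of 1 FPKM, 0 with no filter, 1 with a mean of at least 1 FPKM, 4 with median ratio scaling, 17 at the same sum, 0 with quantile normalization, 1 with no trend and 0 to 15 with 1 library left out, 15 being without control replicate 1. The cause was not tested. Where a library was left out, the lone library of its group was assumed to vary like the other group.

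Same-numbered libraries of the 2 groups did not deviate together (r = -0.14), so the numbers were not taken as pairs. With the replicate block 0 genes, 0 of the 6 and 0 pathway genes were called. With the crossed pairing, added after seeing the data, the counts were 588, 5 and 28. That pairing was added because r was negative, and it rests on no label. Its own r is by construction the opposite (0.14), so its counts are not independent of that choice. With 2 libraries a group, exact tests cannot go below p = 0.333.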
